A study of Mus musculus with 12 samples.

Results

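Crls1, the gene for cardiolipin synthase, was edited in 1 clone of NIH-3T3 cells, a mouse embryonic fibroblast line, and the RNA of that clone (Crls1KO2, called KO2) was compared with that of unedited cells (Crls1WT, called WT). The comparison takes 3 libraries of each genotype and those genes, 14200 of 54392 in the deposited table, whose normalized count reached 10 in 3 or more of these 6 libraries. A further pair of clones from the same transfection, KO1 and KO3, with 3 libraries each, was used to share the estimate of spread and to see where KO2 stood apart. All cells grew in the same medium with glucose, glutamine, foetal bovine serum, sodium pyruvate and uridine, and nothing else was given.

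KO2 carries edited Crls1 from a plasmid that encodes Cas9 and a guide, and it grew from 1 cell sorted on GFP fluorescence, so everything below describes 1 clone. The labels give neither the position of the guide nor whether WT cells went through transfection and sorting. They do not say whether the 3 libraries of a genotype came from separate cultures, and p-values then measure only the spread between these libraries, which may be technical. RNA was total RNA after depletion of ribosomal RNA, primed with random hexamers. Summed whole reads ranged from 32929242 to 41608389 in WT and from 36301871 to 40194770 in KO2. The correlation of log2 values was lower between WT replicate 1 and the other WT libraries (0.983 and 0.981) than between WT replicates 2 and 3 (0.991), against 0.986 to 0.990 within KO2, so counts are also given without WT replicate 1.

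Cardiolipin is a phospholipid with a pair of phosphatidyl groups that sits almost wholly in the mitochondrial inner membrane, where it binds respiratory complexes, carriers and the proteins that shape cristae. Cardiolipin synthase makes it in the last step of synthesis, by joining phosphatidylglycerol to CDP-diacylglycerol. NIH-3T3 cells are dividing fibroblasts, so their RNA holds programs of growth, sterol supply, actin tension and extracellular matrix beside those of mitochondria.

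Crls1 (chromosome 2, 132846666 to 132866785, GRCm38, plus strand) was read at normalized counts of 739.7, 873 and 834 in WT and 336, 338 and 374 in KO2. The KO2 and WT libraries did not overlap. The difference was -1.22 ± 0.088 on the log2 scale (SE, adjusted p = 1.4e-07), so KO2 kept transcripts of the edited gene. All fold changes are differences of mean log2(value + 1) from limma across all 14200 genes, and a gene is called when its Benjamini-Hochberg adjusted p is under 0.05. Genes of the cardiolipin route itself moved in both directions: of 17 tested, 7 were higher and 4 lower, or 7 and 7 without WT replicate 1. Over all genes tested, 31.0% were higher and 32.0% lower, so these counts do not set the route apart. Taz, the acyltransferase that remodels cardiolipin, was higher by 0.67 and Plscr3, a scramblase linked to its transport, by 0.76. Tamm41, which makes CDP-diacylglycerol in mitochondria, fell by 0.41, Prelid1, a carrier of phosphatidic acid, fell by 0.55 and Lclat1, a lysocardiolipin acyltransferase, fell by 0.64.

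The clone differed from WT over much of the transcriptome. KO2 was higher for 4396 genes (31.0% of those tested) and lower for 4538 (32.0%), 62.9% in all, with a median difference of 0.0013 over all genes and a median standard error of 0.10. A change of at least 2-fold was called for 1416 genes upwards (9.97%) and 1073 downwards (7.56%). Without WT replicate 1, the counts were 4510 and 4548, or 31.8% and 32.0%, and 1376 (9.69%) and 1035 (7.29%) for at least 2-fold. At the far ends, 110 genes were called at least 16-fold higher and 109 at least 16-fold lower. The filter let 284 genes pass through KO2 alone and 233 through WT alone, and these had to differ. The value that decided membership was 10.3 for the gene just inside and 9.94 for the gene just outside. In the authors' deposited table, which gives its own comparison of KO2 with WT, 8678 of the 8934 called genes passed 0.05 in the same direction and 0 in the opposite one.

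**Figure D1:**
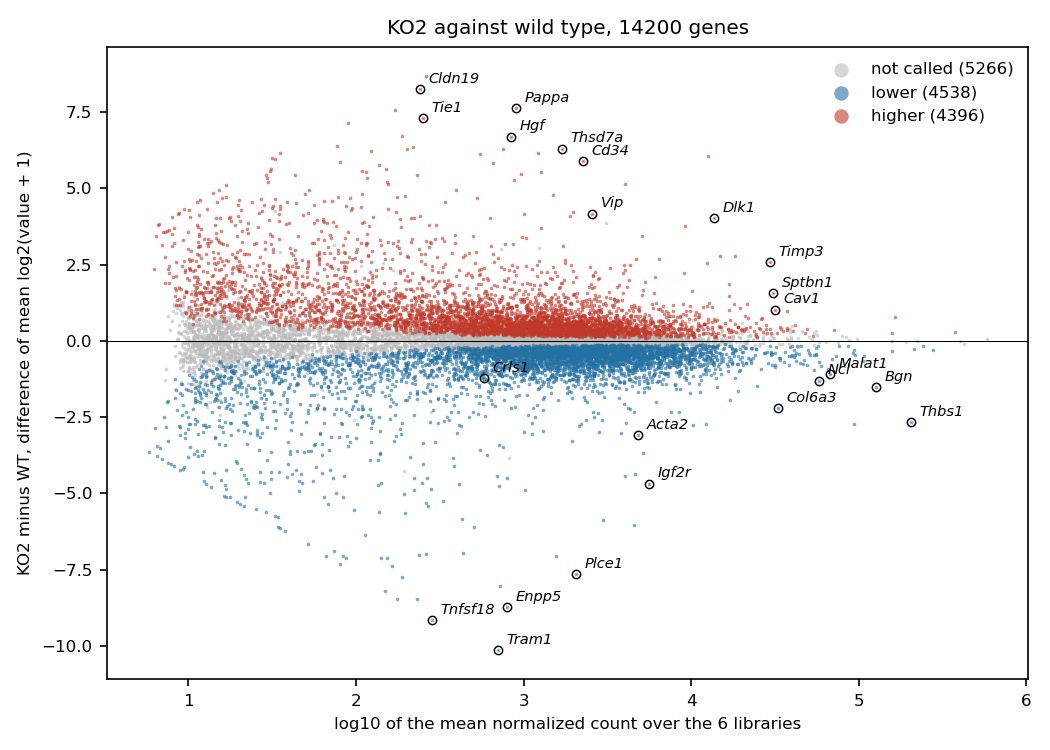
Difference between KO2 and WT (y axis, difference of mean log2(value + 1)) against the log10 of the mean normalized count (x axis) for the 14200 genes tested, each a point, red where called higher (4396), blue where called lower (4538) and grey where not called. Ringed genes are described in the text, and Tram1 lies at -10.15 and Cldn19 at 8.25.

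The first set of results is about growth and division. Cells that enter S phase load the MCM helicase at origins, and the genes for that machinery carry sites for E2F factors, which the retinoblastoma proteins hold in check. Genes of mitosis are switched by another route, through a short element called CHR. Stretches of 4 promoters with E2F matches are shown first because all 4 genes were lower in KO2. They are RefSeq sequences of GRCm38.p6, written 5′ to 3′ on the gene's strand from bases before the annotated start. Capitals mark TTTCCCGC or TTTGGCGC, read on either strand.
Mcm5 (chr8:75109330-75109397, plus strand): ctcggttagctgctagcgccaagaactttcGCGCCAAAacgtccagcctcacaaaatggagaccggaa
Mcm6 (chr1:128359715-128359845, minus strand): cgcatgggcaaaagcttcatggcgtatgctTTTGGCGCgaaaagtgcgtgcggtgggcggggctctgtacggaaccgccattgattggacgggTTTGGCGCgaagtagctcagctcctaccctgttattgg
Mcm7 (chr5:138172011-138172078, minus strand): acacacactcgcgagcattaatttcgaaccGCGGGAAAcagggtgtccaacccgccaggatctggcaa
Cdc6 (chr11:98907983-98908050, plus strand): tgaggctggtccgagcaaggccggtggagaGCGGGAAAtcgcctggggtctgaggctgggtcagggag
Matches were sought in windows from 250 bases before to 50 after each start, for the 10138 tested genes that the promoter table holds. An E2F match was found for 11 of 30 replication genes (36.7%) against 3.41% of all 10138. The CHR letters, TTTGAA on either strand, were found for 25 of 36 mitotic genes (69.4%) against 14.6%. A pair of CHR matches lies close to the start of Cdk1, the mitotic kinase, shown with both in capitals.
Cdk1 (chr10:69352913-69353013, minus strand): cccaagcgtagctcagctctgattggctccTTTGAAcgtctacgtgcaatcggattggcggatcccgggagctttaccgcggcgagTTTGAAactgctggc

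Of 38 replication genes, 37 were lower in KO2 and 0 higher, with a median of -0.84 against 0.0013 over all genes. Mcm6, a subunit of the replicative helicase, had normalized counts of 11593, 9096 and 10023 in WT and 3552, 3981 and 3932 in KO2. Mcm3, another subunit, had 7502, 8588 and 9078 in WT and 3006, 3302 and 3532 in KO2. In both the 3 KO2 libraries lay below every WT library, with differences of -1.42 ± 0.076 and -1.35 ± 0.075 (SE). Prim2, the large primase subunit, fell by 0.85 (adjusted p = 4.4e-08). Among 43 genes of mitosis, 40 were lower and 0 higher (median -0.66). Ccna2, cyclin A2, had 12075, 11192 and 11612 in WT and 4767, 5436 and 5649 in KO2, a difference of -1.14 ± 0.062 (SE). Ccnb1, cyclin B1, fell by 0.94 and Nuf2, which ties kinetochores to microtubules, fell by 1.02. For both lists, limma at an unadjusted p under 0.05, edgeR and DESeq2 also gave 0 higher. Each library's values are scaled by 1 size factor, so these are levels relative to the rest of the RNA.

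Regulators of the cell cycle moved in both directions. Of 22 genes for G1 cyclins, retinoblastoma proteins, E2F factors and CDK inhibitors, 12 were lower and 7 higher. Lower were Ccne2, cyclin E2 (-1.57), E2f7 and E2f8, E2F factors that repress (-1.35 and -1.11), E2f1 (-0.84), Ccnd1, cyclin D1 (-0.61) and the growth regulator Myc (-1.02). Higher were Rb1 (0.94) and its relative Rbl2 (0.90), Cdkn1b, the inhibitor p27 (0.66), Cdkn2c, the inhibitor p18 (0.77) and Ccnd3, cyclin D3 (0.60). Rb1 was read at 475, 477 and 560.0 in WT and 1056, 923 and 919.6 in KO2, without overlap. Cdkn1a, the p53-induced inhibitor p21, differed by 0.17 only (adjusted p = 0.0059). Among 21 p53 targets, 8 were higher and 6 lower: Sesn1, a stress sensor that restrains mTORC1, rose by 1.52 and the death receptor Fas by 1.20, while Btg2, an antiproliferative gene, fell by 0.98.

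Genes that build ribosomes were lower as a group, while the ribosomal proteins were not. Of 32 genes of ribosome biogenesis, 29 were lower and 2 higher, with a median of -0.78. Nop58, a core protein of the box C/D particles that methylate ribosomal RNA, had 13892, 12303 and 12572 in WT and 5354, 5806 and 5639 in KO2. Its partner Nop56 fell by 1.27 and Wdr43, which acts early on the small subunit, fell by 1.31. Ncl, nucleolin, an abundant nucleolar protein, was at 94353, 76011 and 76779 in WT and 30204, 32803 and 36707 in KO2, a difference of -1.31 ± 0.089 (SE). The 2 genes higher were Nop10 (0.90), of the box H/ACA particles, and Rrp1 (0.20). Of 47 large-subunit ribosomal proteins 14 were higher and 2 lower, and of 32 small-subunit ones 8 were higher and 3 lower, with medians of 0.24 and 0.25. Without WT replicate 1 these became 7 and 9, and 4 and 7, with medians of 0.09 and 0.07, so the excess of higher ribosomal proteins was lost without that library. Without KO2 replicate 1, 4 and 2 were higher, and without WT replicate 3, 23 and 18. Many of these genes have processed copies between which reads can be split.

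Genes that supply nucleotides and folate units were mostly lower. Among 30 genes of the pentose phosphate route and nucleotide synthesis, 22 were lower and 5 higher (median -0.67). Uck2, the uridine-cytidine kinase, had 3983, 4116 and 4413 in WT and 1463, 1628 and 1623 in KO2 and differed by -1.41 ± 0.066 (SE). Impdh2, the gate to guanine nucleotides, fell by 0.69. The exceptions included G6pdx (0.33) and Pgd (0.38), the NADPH-making steps of the pentose route, and Ctps2 (0.74). Of 14 genes for serine, glycine and folate enzymes, 11 were lower and 0 higher (median -0.70), and 0 were higher at an unadjusted p under 0.05, by edgeR or by DESeq2. Mthfd2, a mitochondrial folate enzyme, had 4706, 5166 and 5363 in WT and 1986, 2337 and 2392 in KO2. Phgdh, the first step of serine synthesis, fell by 0.86, Shmt2 fell by 0.72 and Aldh1l2, which makes NADPH from folate in mitochondria, fell by 1.05. Of 35 proteasome genes 22 were lower and 5 higher (median -0.25), with 2 higher without KO2 replicate 1 and 3 without KO2 replicate 2. Psmd1, a scaffold of the proteasome's base, fell by 0.92. Psme1 and Psme2, the interferon-inducible activator PA28, rose by 0.52 and 0.47. The proteasome count of lower genes was 14 after quantile normalization.

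Genes that load and carry amino acids were mostly lower too. Several of them are targets of ATF4, the factor of the integrated stress response, which binds an element containing TGATGNAA. Promoter stretches of 4 such genes lower in KO2 are shown with the letters TGATGNAA, read on either strand, in capitals.
Aars (chr8:111033700-111033767, plus strand): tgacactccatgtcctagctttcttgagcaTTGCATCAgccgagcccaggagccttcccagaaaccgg
Tars (chr15:11399659-11399703, minus strand): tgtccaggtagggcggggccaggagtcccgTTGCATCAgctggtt
Asns (chr6:7693210-7693262, minus strand): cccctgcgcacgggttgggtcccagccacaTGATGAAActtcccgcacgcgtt
Slc7a11 (chr3:50443623-50443709, minus strand): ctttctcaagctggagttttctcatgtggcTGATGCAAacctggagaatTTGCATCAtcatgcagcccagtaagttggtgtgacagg
The letters were found for 5 of 12 tRNA synthetases with a promoter in the table (41.7%), against 2.67% of all 10138 genes. Of 20 cytosolic tRNA synthetases, 18 were lower and 1, Wars, higher (0.15, not called without WT replicate 2 or KO2 replicate 3), with a median of -0.51. Iars, which charges the isoleucine tRNA, had 9681, 8341 and 8509.5 in WT and 3609, 3947 and 4361 in KO2 and differed by -1.16 ± 0.074 (SE). Vars fell by 0.97, Lars fell by 0.77, Tars fell by 0.68 and Aars fell by 0.54. Of 20 amino acid transporters 14 were lower and 2 higher (median -0.55). Slc6a6, the taurine carrier, had 12553, 11841 and 11936 in WT and 3673, 4166 and 4198 in KO2. Slc7a11, the cystine carrier, fell by 1.11, Slc38a1, a glutamine carrier, fell by 1.29 and Slc7a5, which takes up large neutral amino acids, fell by 0.93. Slc1a3, a glutamate carrier, rose by 1.23.

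The sensors and regulators of that response fell less evenly. Eif2ak4, the kinase GCN2, which reads uncharged tRNA, had 7543, 6871 and 6997 in WT and 1364, 1601 and 1579.8 in KO2. The KO2 libraries lay far below those of WT, with a difference of -2.24 ± 0.073 (SE, adjusted p = 1.5e-10). Atf4 itself differed by -0.51, Trib3 by -0.71 and Nupr1 by -1.06, all lower. Ddit3, which encodes CHOP, was higher by 0.30, Cebpb by 1.06 and Ppp1r15a, which reverses the phosphorylation of eIF2, by 0.52. In all, 9 of 17 regulators were lower and 4 higher. Among 22 chaperones and sensors of the endoplasmic reticulum, 15 were lower and 3 higher (median -0.22). Manf, a secreted chaperone cofactor, fell by 1.11, Atf6, a sensor of unfolded proteins, fell by 0.99 and Hspa5, the main chaperone BiP, fell by 0.45. The 3 higher, Sel1l, Herpud1 and Syvn1, all belong to the machinery that removes misfolded proteins (0.59, 0.52 and 0.43). Of 17 cytosolic heat shock genes, 7 were lower and 3 higher (5 higher without WT replicate 1), Hspa4 by -0.95 and Cryab by 0.56. Hspa1b, at 0.57, is nearly identical to Hspa1a, at -0.025, and their reads cannot be told apart with certainty.

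**Figure D2:**
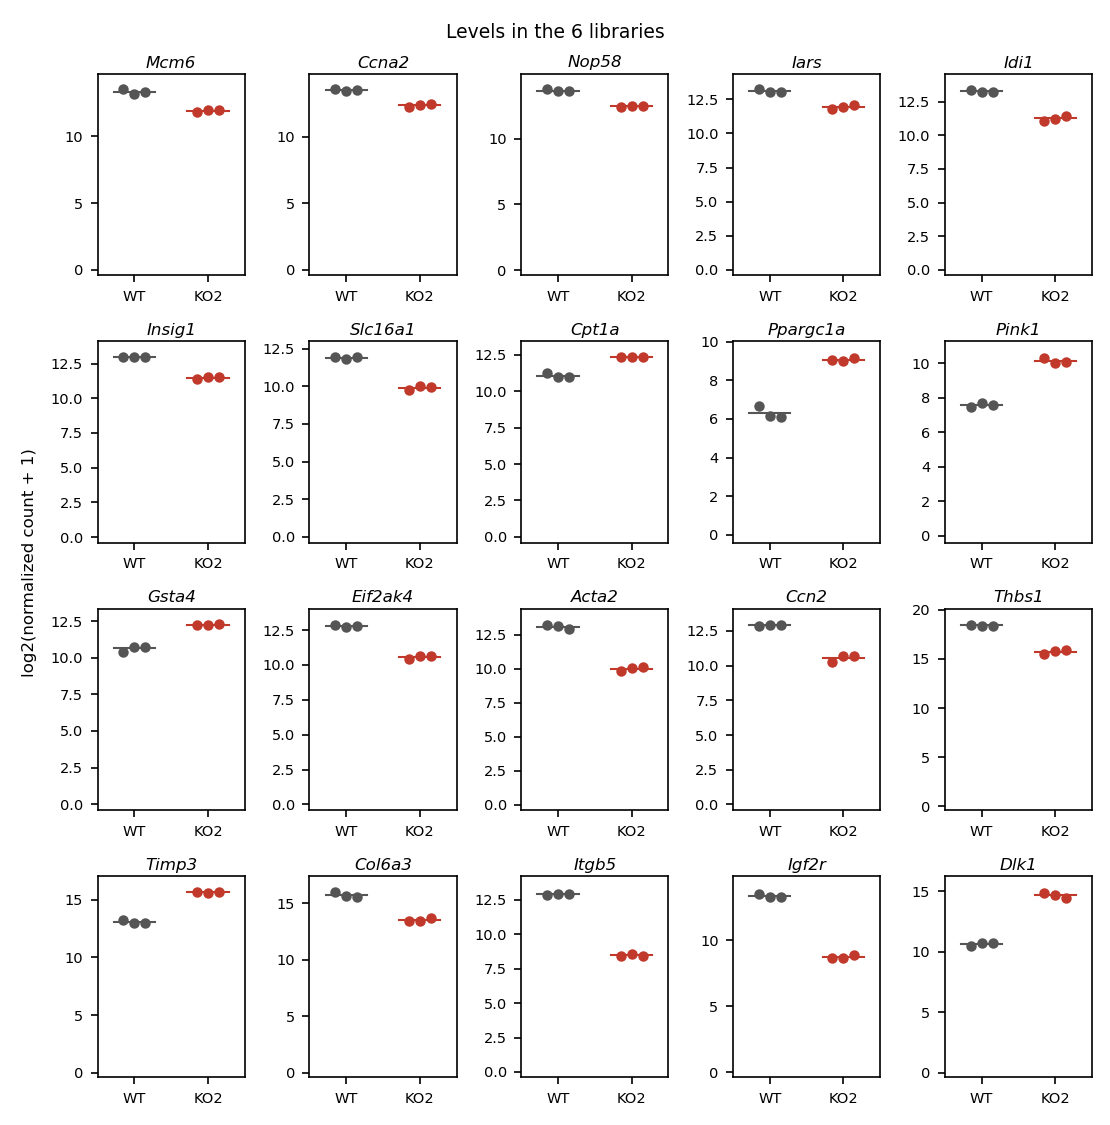
Levels of 20 genes, as log2(normalized count + 1) on the y axis, in the 3 WT libraries (grey) and the 3 KO2 libraries (red), with each group's mean as a line. In every panel the libraries of the 2 genotypes lie apart, for example Eif2ak4 at 7543, 6871 and 6997 in WT and 1364, 1601 and 1579.8 in KO2.

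Most genes of cholesterol synthesis were lower. SREBP2 drives these genes when membranes run short of cholesterol. The core of its element, TCACNCCAC, was found upstream of Hmgcs1, which makes the HMG-CoA that enters the pathway, and is shown in capitals.
Hmgcs1 (chr13:119690184-119690252, plus strand): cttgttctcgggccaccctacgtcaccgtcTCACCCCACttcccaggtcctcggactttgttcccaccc
The same letters were found for 1.43% of the 10138 genes, for 1 of 7 genes of the mevalonate arm and for 0 of 9 of the squalene arm. Hmgcs1 was read at 12710.5, 11022 and 10996 in WT and 4112, 4349 and 4632 in KO2. All 9 genes of the mevalonate arm were lower (median -1.07), with 0 higher at an unadjusted p under 0.05, by edgeR or by DESeq2, and of the 12 of the squalene arm 10 were lower and 1, Dhcr7, higher (0.29). Idi1, which isomerises isopentenyl diphosphate, had 10568, 9485 and 9466 in WT and 2154, 2412 and 2733 in KO2 and differed by -2.02 ± 0.081 (SE). Insig1, which holds SREBP in the endoplasmic reticulum, had 8131, 7986 and 8068 in WT and 2672, 2919.9 and 2919.6 in KO2. Of 18 genes of sterol uptake and SREBP control 9 were lower and 4 higher. Soat1, which esterifies cholesterol, fell by 1.42, while Insig2 and Lrp1 rose, at 0.53 and 0.37. Abca1, which exports cholesterol and is a target of LXR, had 2.35, 6.21 and 0.903 in WT and 24.3, 35.5 and 33.4 in KO2 and rose by 3.14 ± 0.38 (SE), while Apoe, another LXR target, fell by 0.85 and Arl4c fell by 2.17. No WT library reached 10 for Abca1, so it had to be higher to be tested. Of the 9 mevalonate genes 7 lie on chromosomes 1, 3, 13 or 17, where the median of all genes was -0.29, and the other 2, Mvk and Mvd, differed by -0.46 and -0.38.

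Fatty acid genes moved in opposite directions by role. Of 21 genes that make, lengthen or desaturate fatty acids, 14 were lower and 3 higher (median -0.52). Fasn, fatty acid synthase, had 9754, 9597 and 10846 in WT and 4267, 4498 and 4934 in KO2, Elovl6, an elongase, fell by 1.69 and Fads1, a desaturase, fell by 0.87. Scd1 and Scd2, the main stearoyl desaturases, differed by -0.10 and -0.037 (adjusted p = 0.25 and 0.60). Of 24 genes of mitochondrial fatty acid oxidation, 19 were higher and 2 lower (median 0.37). Cpt1a, which makes the acylcarnitine that enters mitochondria, had 2377, 1967 and 1966 in WT and 5101, 5252 and 5286 in KO2, and Acaa2, the last thiolase step, rose by 1.38. Acadvl, the very-long-chain dehydrogenase, rose by 1.00 and Acad10 by 1.35. Cpt1b, the muscle form, was lower (-0.78), as was Acad9 (-0.62), which also serves complex I assembly.

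Among 30 peroxisome genes, 15 were higher, 3 lower and 12 not called (median 0.21). The lower ones were Acox2, an oxidase of branched chains (-0.89), Agps, of ether lipid synthesis (-0.73), and Far1, which makes fatty alcohols (-0.30). Abcd2, an importer of very long acyl-CoA, had 103, 106 and 76.8 in WT and 519, 463 and 446 in KO2, Phyh, which starts the oxidation of phytanic acid, rose by 1.20 and Cat, catalase, by 0.65. Ppargc1a, the coactivator PGC-1α, which works with PPAR factors, had 99.96, 69.4 and 68.6 in WT and 522, 506 and 561 in KO2. Its difference was 2.75 ± 0.13 (SE), and Pparg itself rose by 1.03 and Lpl, lipoprotein lipase, by 1.15. Of 14 PPAR targets 8 were higher and 2 lower, Angptl4 (-0.90) and Fabp5 (-0.69). The lipases Pnpla2 and Lipe, which release stored fat, rose by 0.90 and 0.83, and Agpat3, which makes phosphatidic acid, by 2.11. Agpat5 fell by 0.76 and Lpin3 fell by 0.82. In phosphatidylserine and phosphatidylethanolamine synthesis, Pisd, the mitochondrial decarboxylase that makes phosphatidylethanolamine, rose by 0.91, and Ptdss1 and Selenoi were lower, at -0.44 and -0.47. Sphk1, the sphingosine kinase, rose by 1.71 and Cers2, a ceramide synthase, fell by 0.74.

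Sugar metabolism was mixed. Of 23 glycolysis genes 11 were lower and 6 higher (median -0.26). Slc16a1, the lactate carrier MCT1, had 3935, 3682 and 3921 in WT and 853, 1023 and 1005 in KO2 and Hk2, an inducible hexokinase, had 3262, 2762 and 2722 in WT and 948, 845 and 939.8 in KO2. Ldha fell by 0.79 and Gapdh fell by 0.58. Hk1, the constitutive hexokinase, rose by 0.85, Pfkm by 0.94 and Pfkfb3, which makes the activator of phosphofructokinase, by 1.18. Of 27 genes of pyruvate entry and the TCA cycle 11 were higher and 5 lower, and Pdk2, which shuts off pyruvate dehydrogenase, had 219.9, 245 and 256 in WT and 906, 972 and 749.9 in KO2, while its activating phosphatase Pdp1 rose by 0.74. Of 17 hypoxia targets 9 were lower and 4 higher, from Adm at -1.15 to Ndrg1 at 2.44.

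The 11 messenger RNAs of the mitochondrial genome had a median difference of -0.17. Of these, 4 were lower, and limma called 0 higher, 0 at an unadjusted p under 0.05, edgeR 0 and DESeq2 1. Without WT replicate 3 or KO2 replicate 1, limma called 1 higher. mt-Nd2, a complex I subunit, had 126105, 132385 and 129876 in WT and 83665, 80204 and 84105 in KO2. It differed by -0.65 ± 0.060 (SE), and the other 3 lower were mt-Nd1 (-0.35), an entry the table calls mt-Nd4l_4 (-0.28) and mt-Cytb (-0.17). After quantile normalization 1 was lower. mt-Co1, of complex IV, had 564703, 571077 and 554753 in WT and 595409, 580727 and 602638 in KO2. The KO2 libraries lay above those of WT by little, and the difference was not called (0.073, adjusted p = 0.46). For mt-Co2, mt-Co3, mt-Nd3 and mt-Nd4l, near-identical copies lie on chromosome 1 (24612407 to 24615565), and reads can be split between them: Gm28661 shares 100.0% of its 30-base words with mt-Co2 and Gm28437 100.0% with mt-Co3. mt-Co2 ran from 1015 to 14538 within KO2, so single values of these genes are uncertain. Summed over the messenger RNAs and the 4 copies, levels were 2331472, 2473137 and 2403021 in WT and 2245385, 2215453 and 2340884 in KO2, and the groups overlapped. mt-Rnr2, the large ribosomal RNA of the mitochondrial ribosome, had 33811, 16825 and 26939 in WT and 10975, 10049 and 10805 in KO2, and mt-Rnr1 had 13776, 3480.0 and 10468 in WT and 8457, 7566 and 8119 in KO2, both after depletion of ribosomal RNA.

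Nuclear genes for mitochondria were also tested by list. Over all genes tested, 31.0% were higher and 32.0% lower, and a count near these shares does not set a list apart. Of 20 genes that maintain and transcribe mitochondrial DNA, 11 were lower and 1 higher (median -0.27; 0 higher without KO2 replicate 2 and 2 without KO2 replicate 3). Lrpprc, which stabilises mitochondrial messenger RNAs, had 6649, 5618 and 5536 in WT and 3236, 3332 and 3284 in KO2, Fastkd2, which acts on the large mitochondrial ribosomal RNA, fell by 0.85, Twnk, the helicase, fell by 0.42 and Tfam, which packs the genome, fell by 0.34. Of 49 large-subunit mitoribosome genes 15 were lower and 3 higher, and of 31 small-subunit genes 12 and 5, with medians of -0.05 and -0.05. Without WT replicate 1, 24 and 16 were lower. The large-subunit genes higher were 6 without WT replicate 2 and 9 without WT replicate 3, and the small-subunit ones 3 without KO2 replicate 1 and 2 without KO2 replicate 2. Ptcd3 and Mrps18a, of the small subunit, were lower, at -0.47 and -0.90, and Mrpl16 fell by 0.51. Complex I had 13 of 36 subunits higher and 2 lower (median 0.23), but 11 and 5 without WT replicate 1. Complexes II to IV had 11 of 25 higher and 1 lower, but 6 and 6 without it, and 5 higher without KO2 replicate 1 or 2. ATP synthase had 6 of 16 higher and 1 lower, or 6 and 3, and 3 higher without KO2 replicate 1. Ndufb9, an accessory subunit of complex I, rose by 0.75 and Ndufs1, a core subunit, fell by 0.43. Pet117, an assembly factor of complex IV chosen after its values were seen, had 0 reads in all 3 KO2 libraries against 127 in WT, at least 47.1-fold lower with a floor of 3 reads over the group. With no KO2 reads, Pet117 had to be lower to be tested. Oma1, a stress protease of the inner membrane, rose by 0.87, while the chaperones Hspd1 and Hspa9 were lower, at -0.79 and -0.51.

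Autophagy and oxidant defence lists held more higher than lower genes. Pink1, the kinase that marks damaged mitochondria, had 174, 204 and 189.7 in WT and 1274, 1062 and 1069.9 in KO2, without overlap, a difference of 2.58 ± 0.10 (SE). Of 26 autophagy genes 13 were higher and 5 lower (median 0.30), with Wipi1 at 0.73 and Atg2a at 0.88. Of 30 lysosome genes 12 were higher and 8 lower. Tfe3, a factor that drives them, rose by 0.81, whereas Ctsk, cathepsin K, had 242, 270.2 and 291 in WT and 3.73, 3.83 and 6.15 in KO2. Among 33 NRF2 targets and glutathione genes, 17 were higher and 9 lower (median 0.31, or 0.13 without WT replicate 1, with 16 and 12). Gsta4, which clears the lipid peroxide product hydroxynonenal, had 1355, 1725 and 1689.8 in WT and 4775, 4796 and 4942 in KO2. Nqo1, a quinone reductase, rose by 1.19 and Nfe2l2, which encodes NRF2, by 1.01. Prdx6, a peroxiredoxin that repairs oxidised phospholipid, fell by 1.36 and Gpx7 fell by 1.12.

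**Figure D3:**
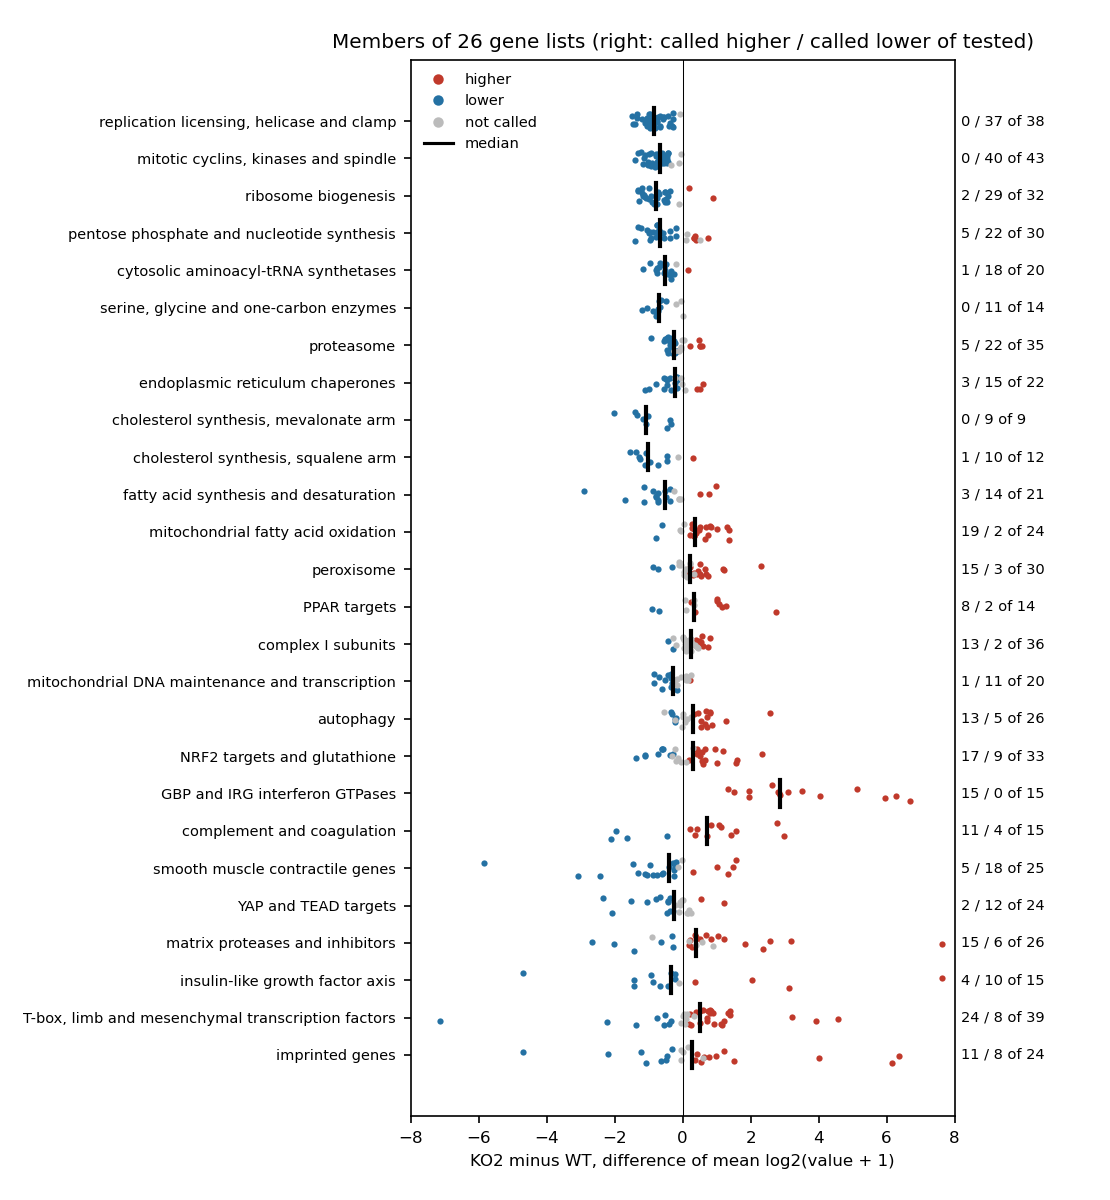
Difference between KO2 and WT (x axis, log2 scale) for each tested member of 26 gene lists (rows), red where called higher, blue where called lower and grey where not called, with the list's median as a black bar and its counts at the right. Replication and mitosis lists lie to the left of 0 (37 and 40 lower) and the interferon GTPases to the right (15 higher, 8 of which passed the filter only with KO2 values).

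Most smooth muscle contractile genes were lower. Serum response factor and its actin-sensing partners drive these genes, and YAP with TEAD factors drives a related set under tension. Acta2, smooth muscle actin, had 9268, 8884 and 7858 in WT and 922, 1044 and 1091 in KO2, and Actg2, its enteric relative, had 796, 924 and 815 in WT and 19.6, 12.5 and 10.5 in KO2. The difference was -3.09 ± 0.073 for Acta2 (SE) and -5.84 ± 0.20 for Actg2. Lmod1, which nucleates actin in muscle, fell by 2.45, Tagln fell by 1.31 and Srf itself fell by 0.86. Of 25 genes 18 were lower and 5 higher (median -0.39). The higher ones included Cnn1, calponin (1.32), Synpo2 (1.56) and Zyx, zyxin (1.01). Myh10, nonmuscle myosin IIB, had 34459, 37235 and 37773 in WT and 13948, 13104 and 12482 in KO2. The letters of the TEAD element, GGAATG on either strand, were found for 11 of 18 YAP and TEAD targets with a promoter in the table (61.1%), against 14.6% of all 10138 genes. Of 24 such targets 12 were lower and 2 higher (median -0.25), with 5 higher without WT replicate 1. Ccn2 and Ccn1, secreted matrix proteins, were both lower. Ccn2 had 7339.6, 7638 and 7827 in WT and 1251, 1631 and 1678 in KO2, and Ccn1 had 6182, 6262 and 6849 in WT and 1359, 1607 and 1644 in KO2. Ankrd1 fell by 1.05, while Yap1 differed by -0.083 (adjusted p = 0.11) and Wwtr1 by -0.093 (adjusted p = 0.15). Immediate early genes split: Egr1 rose by 1.75, Egr2 by 2.76 and Klf4 by 1.30, while Etv4 and Etv5, which follow ERK signals, were lower, at -6.11 and -1.60, and the phosphatase Dusp1 fell by 2.26.

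Matrix genes moved in both directions. Of 28 collagen chains 11 were higher and 12 lower, and of 42 glycoproteins and proteoglycans 15 and 17. Among those that reached 10 in all WT libraries, the counts were 8 and 12 of 25, and 14 and 17 of 39. Of these, 1 collagen and 2 glycoproteins reached 10 in no KO2 library and had to be lower to be tested. Thbs1, thrombospondin 1, one of the most abundant transcripts of WT cells, had 370662, 340389 and 345607 in WT and 46597, 56794 and 63437 in KO2, and Bgn, biglycan, had 184417, 192413 and 186177 in WT and 65847, 65915 and 66171 in KO2. Col6a3, a chain of collagen VI, had 65368, 50662 and 47429.9 in WT and 10725, 11067 and 13422 in KO2, and Col8a1 fell by 3.02. Ltbp1, which stores TGF-beta in the matrix, had 18727, 17583 and 17309 in WT and 2517, 2666 and 2715 in KO2. Against these, Vcan, versican, had 14596, 12256 and 12773 in WT and 29358, 29641 and 31213 in KO2, Fbln5 rose by 1.48, Nid1 by 1.22 and Col28a1 by 3.20. Tnr, tenascin R, which is known from brain matrix, had 11.8, 22.8 and 21.7 in WT and 1567, 1338 and 1548 in KO2. Of 26 matrix proteases and inhibitors 15 were higher and 6 lower. Among the 22 that reached 10 in all WT libraries, 13 were higher and 6 lower. Timp3, a metalloprotease inhibitor held in the matrix, had 9399, 8243 and 7974 in WT and 50844, 49611 and 51920.0 in KO2, and Adam19 rose by 2.38. Mmp11 fell by 2.01, Adam12 fell by 2.67 and Mmp2 fell by 0.64. Ctsk, given above, also degrades collagen.

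Integrins, the receptors that hold cells to matrix, also moved both ways. Of 23 integrin subunits 10 were higher and 9 lower. Among the 18 that reached 10 in all WT libraries, 7 were higher and 9 lower. In 3 others no WT library reached 10, so they had to be higher to be tested. Itgb5, partner of the alpha v subunit in binding vitronectin, had 7284, 7785 and 7972 in WT and 339, 385 and 335 in KO2. Its difference was -4.44 ± 0.075 (SE), and Itgav and Itgb3 were lower, at -0.47 and -1.72. Itga6, a laminin receptor subunit, had 1053, 888 and 921 in WT and 4373, 4417 and 3844 in KO2, Itgb8, which activates TGF-beta, rose by 4.67 and Itga4, which binds VCAM1, by 1.42. Cdh1, E-cadherin, rose by 3.33 from a WT level of 19.99, 13.5 and 19.9 to 185, 171 and 199.6. Complement and clotting genes had 11 of 15 higher and 4 lower. C3, the central complement component, rose by 2.97 and C4b by 2.79, with Plat, tissue plasminogen activator, at 2116, 1896 and 1907 in WT and 5906, 5747 and 6057 in KO2. The lower ones included urokinase, Plau (-2.10), its receptor Plaur (-1.64) and tissue factor F3 (-0.45).

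The next 6 genes, abundant and changed at least 4-fold, were chosen after their values were seen. Gas7, a regulator of actin and membranes, had 413, 357 and 362 in WT and 25984, 24068 and 24639 in KO2, and Plpp3, a lipid phosphatase at the cell surface, had 1335, 1238 and 1230.1 in WT and 17513, 17101 and 16825 in KO2. Ptx3, a secreted pentraxin of innate defence, had 4544, 4655 and 4800.3 in WT and 31329, 31720.0 and 33005 in KO2, and Svep1, a large adhesion protein, rose by 2.22. Mgp, an inhibitor of calcification, had 16276, 24672 and 23397 in WT and 2890.3, 3306 and 3335 in KO2, and Hmga2, an architectural chromatin protein of embryonic and dividing cells, had 15128, 13822 and 13513 in WT and 2233, 3000.4 and 3351 in KO2. That choice fixed their direction and the gap between groups. Among the most abundant genes changed at least 2-fold, Cav1, which forms caveolae, had 23499, 19649.9 and 19266 in WT and 41700.0, 41172 and 43378 in KO2 and Sptbn1, a spectrin under the membrane, had 17758, 14515 and 14562 in WT and 44793, 45843 and 47582 in KO2. Malat1, a nuclear noncoding RNA, had 152135, 82971 and 49033 in WT and 35877, 36836 and 47487 in KO2, with WT replicate 1 highest. The difference was -1.10, and -0.68 without that library.

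Several growth factor genes changed strongly. In the insulin-like growth factor axis, 10 of 15 genes were lower and 4 higher. Among the 14 that reached 10 in all WT libraries, 10 were lower and 3 higher. Igf2r, which takes IGF2 to lysosomes for degradation, had 11987, 10216 and 10288 in WT and 400.2, 399.6 and 462 in KO2. It differed by -4.68 ± 0.072 (SE, adjusted p = 3.0e-13). Airn, which overlaps it on the other strand, differed by -0.50. Pappa, a protease that frees IGF by cutting IGFBP4, had 4.70, 6.21 and 17.2 in WT and 1871, 1707 and 1803 in KO2, and Igfbp4 itself had 314, 358 and 387 in WT and 3154, 3273 and 2800.0 in KO2. Pappa did not reach 10 in every WT library and passed the filter only with KO2 values. Igf1 fell by 1.43 and Stc2, an inhibitor of Pappa, fell by 0.92. Of 38 receptor tyrosine kinases and ligands 16 were higher and 17 lower. Among the 35 that reached 10 in all WT libraries, 14 were higher and 17 lower. Of these, 2 reached 10 in no KO2 library and had to be lower to be tested. Hgf, the ligand of the MET receptor, had 21.2, 11.4 and 14.5 in WT and 1670.0, 1608 and 1732 in KO2. Pdgfra, the receptor of fibroblast progenitors, rose by 1.85 and Vegfd by 1.52, while Fgf10, Fgf7 and Pdgfc, secreted mesenchymal factors, were lower, at -3.34, -1.55 and -1.33.

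Wnt genes were more often higher than lower, and TGF-beta genes were mixed. Of 22 Wnt genes 12 were higher and 7 lower (median 0.44). Among the 20 that reached 10 in all WT libraries, 10 were higher and 7 lower. Of these, 1 reached 10 in no KO2 library and had to be lower to be tested. Ror1, a Wnt5a receptor, had 76.4, 67.3 and 74.96 in WT and 1164, 1204 and 1209.7 in KO2, and Lgr4, the receptor for R-spondins, had 3984, 3324 and 3601 in WT and 21622, 20644 and 21119 in KO2. Lrp5, the coreceptor, rose by 2.85 and Tcf7l2, the nuclear factor, by 1.35. Dkk3 fell by 4.03 and Rnf43, which removes Wnt receptors, fell by 1.49. Hedgehog and Notch genes were higher in 8 of 16 and lower in 2, with Gli1, the Hedgehog effector and target, at 1.82 and Hey1, a Notch target, at 0 reads in WT and 77 in KO2, at least 23.1-fold higher with a floor of 3 reads over the group. Hey1 passed the filter only through KO2 and had to be higher to be tested. Of 31 TGF-beta and BMP genes 12 were lower and 9 higher. Of the lower ones 8 lie on chromosomes 1, 3, 13 and 17, and on the other chromosomes 9 of 22 were higher and 4 lower. For 2 of the TGF-beta and BMP genes, Tgfbi among them, no KO2 library reached 10, so they had to be lower. Inhba, the subunit of activin A, had 10209, 9054 and 9337 in WT and 645, 773 and 818 in KO2, Tgfbi, a matrix protein induced by TGF-beta, had 141, 178 and 181 in WT and 0, 0.958 and 0 in KO2, and Tgfb2 fell by 1.52. Among 17 cytokines, 7 were lower and 5 higher. For 2 of the cytokines no KO2 library reached 10, so they had to be lower to be tested. Csf1, which feeds macrophages, fell by 1.63, Lif fell by 2.84 and Tnfrsf11b, the decoy osteoprotegerin, fell by 3.28, while Cxcl5 rose by 1.34.

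The tested GTPases of the GBP and IRG families were higher in KO2. These guard cells against intracellular pathogens and are induced by interferon through an element called ISRE, among others. Stretches of 6 of their promoters are shown, with matches to the ISRE in capitals.
Gbp2 (chr3:142620574-142620643, plus strand): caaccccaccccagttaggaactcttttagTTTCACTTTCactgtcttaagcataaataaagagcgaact
Gbp3 (chr3:142559969-142560043, plus strand): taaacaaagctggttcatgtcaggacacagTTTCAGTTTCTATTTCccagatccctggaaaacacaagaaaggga
Igtp (chr11:58199492-58199555, plus strand): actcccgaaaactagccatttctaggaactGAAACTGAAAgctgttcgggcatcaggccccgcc
Irgm2 (chr11:58214883-58214952, plus strand): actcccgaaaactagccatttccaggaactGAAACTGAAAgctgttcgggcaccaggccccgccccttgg
Irgm1 (chr11:48871421-48871480, minus strand): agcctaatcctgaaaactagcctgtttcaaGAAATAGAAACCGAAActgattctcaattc
Tgtp2 (chr11:49064243-49064312, minus strand): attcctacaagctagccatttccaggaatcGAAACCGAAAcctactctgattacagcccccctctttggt
The ISRE was found for 9 of 11 GTPases with a promoter in the table (81.8%), against 3.65% of all 10138 genes. The stretches of Igtp and Irgm2 are nearly alike over most of their length. Of 21 genes listed 15 were tested. Only 7 of them reached 10 in all WT libraries and so passed the filter without KO2, and these 7 were higher. In 6 others no WT library reached 10, so they had to be higher to be tested. Gbp2 had 553, 497 and 479.6 in WT and 1462, 1441 and 1480.5 in KO2, and Irgm1 had 799, 771 and 759.6 in WT and 2077, 1976 and 1821 in KO2. Tgtp2 had 5.88, 4.14 and 2.71 in WT and 452, 381 and 356 in KO2, and Tgtp1, a near-identical copy between which reads can be split, had 0, 3.11 and 9.93 in WT and 394, 348 and 367 in KO2. Antiviral genes were less uniform: of 28, 14 were higher and 4 lower (median 0.45). Among the 23 that reached 10 in all WT libraries, 10 were higher and 4 lower. Ddx58, the RNA sensor RIG-I, rose by 0.97 and Irf1 by 0.66, while Samhd1, which limits nucleotides, fell by 0.65. In MHC class I presentation 7 of 15 were higher, with Tap1 at 1.00 and H2-T23 at 2.03, and 1, H2-D1, was lower (-0.38), or 2 without WT replicate 1, WT replicate 3 or KO2 replicate 1.

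Some transcription factors that mark position and lineage were also changed. Of 39 factors of limb and mesenchyme 24 were higher and 8 lower (median 0.50). Among the 37 that reached 10 in all WT libraries, 22 were higher and 8 lower. Foxf1, a factor of visceral and lung mesenchyme, had 24.7, 28.99 and 26.2 in WT and 657, 623 and 668 in KO2, and Tbx3 rose by 1.40. Tbx4, the hindlimb factor, had 163, 192 and 167 in WT and 0, 0.958 and 0 in KO2, and Foxc1 fell by 2.22. No KO2 library reached 10 for Tbx4, so it had to be lower to be tested. Of 19 Hox genes 7 were higher and 1 lower (2 without WT replicate 1), from Hoxd9 at -1.90 to Hoxd3 at 1.59, and 11 were not called. That is 36.8% higher and 5.26% lower, against 31.0% and 32.0% of all genes tested. Imprinted genes, which are read from 1 parental copy, had 11 of 24 higher and 8 lower. On chromosome 12, between 109452823 and 109729764 (starts of Dlk1 and Mirg), 5 members lie. Dlk1, an inhibitor of fat cell formation, had 1436, 1658 and 1685 in WT and 29189, 26267 and 22194 in KO2, and Meg3, a noncoding RNA of the other parental copy, had 2.35, 19.7 and 0.903 in WT and 278, 497 and 513 in KO2. Mirg, the host of a microRNA cluster, had 11.8, 71.4 and 38.8 in WT and 2564, 2403 and 2227 in KO2, Rtl1 rose by 1.50 and Rian by 1.21, so all 5 were called higher, and the libraries of the 2 genotypes did not overlap for any of them, against 31.9% of all genes that lay wholly higher and 32.7% wholly lower. Meg3 reached 10 in only 1 WT library and passed the filter through KO2, so its direction cannot be set against those shares. Rian was not called under 7 of 15 alternative settings. In the other clones Dlk1 was at 18397, 17803 and 18921 (KO1) and 24031, 23716 and 28627 (KO3).

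Markers of other cell types were read at lower summed levels than fibroblast markers, and their part in any result above was not tested. Summed levels of 13 fibroblast markers were 877442 to 955504 in WT and 940645 to 983995 in KO2, against 59614 to 65326 and 43901 to 46524 for 12 osteoblast and chondrocyte markers, 1704 to 2018 and 4070 to 4345 for 10 adipocyte markers and 1949 to 2225 and 1610 to 1709 for 10 macrophage markers. Skeletal muscle markers summed to 94.1 to 114.9 and 344.0 to 460.0, with Myod1, Myf5 and Myf6 at 0. Endothelial markers summed to 91.7 to 122.8 and 629.6 to 732.3, with Tie1 among them and Cldn5 and Emcn at 0. Epithelial markers summed to 109.4 to 113.9 and 226.2 to 254.1, with Epcam and Cldn4 at 0, and neural ones to 91.7 to 112.0 and 333.2 to 392.8, with Map2, Snap25 and Olig2 at 0. Of 8 surface markers of progenitors 4 were higher and 3 lower. Cd44, Itgb1 and Eng were the lower ones, at -1.12, -0.40 and -0.42. Cd34, a surface marker of progenitor and endothelial cells, had 76.4, 70.4 and 73.2 in WT and 4613, 4375 and 4288 in KO2, and Ly6a, Sca-1, had 1111, 1550.0 and 1524 in WT and 7099, 6339 and 6022 in KO2.

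The largest losses included genes with no reads left. Tram1, which helps nascent chains into the endoplasmic reticulum (chromosome 1, 13564698 to 13589910, minus strand), had 1421, 1379 and 1431 in WT and 0.933, 0 and 0 in KO2. That is 4125 reads against 1, a ratio of 4590 with a 95% counting interval of 823 to 181300. Its neighbours, chosen after values were seen, were still read, Ncoa2 at 3788, 3245 and 3143 in WT and 3396, 3505 and 3805 in KO2 and Lactb2 at 981, 1069.6 and 1390.0 in WT and 629, 649 and 757 in KO2. Tnfsf18, a TNF family ligand, had 1660 reads in WT and 0 in KO2, at least 616-fold lower, Abca3, a lipid transporter, was at least 379-fold lower and Lrch2 at least 318-fold. The next pair was chosen after its values were seen. Pigh, which acts in the first step of GPI anchor synthesis, had 389 reads in WT and 0 in KO2, and Plekhh1, which overlaps it on chromosome 12, had 199 and 0. Enpp5 had 1676, 1647 and 1460.4 in WT and 2.80, 0.958 and 6.15 in KO2, and P2ry14, a receptor for nucleotide sugars, had 1407, 1530.3 and 1363 in WT and 5.60, 2.87 and 5.27 in KO2. Mboat1, a lysophospholipid acyltransferase, had 1095 reads against 3, a ratio of 406 (95% counting interval 139 to 1972). Ptgr2, a prostaglandin reductase, had 1306 against 1, a ratio of 1453 (260.4 to 57440). Plce1, a phospholipase C, fell by 7.65, Sulf1, a heparan sulfatase, fell by 7.39 and Sall2 fell by 7.13. In all 30 called genes had 0 reads in KO2 and 15 had 0 in WT. They passed the filter through the other genotype alone, which fixed their direction. No KO2 library reached 10 for Tram1, Enpp5, P2ry14, Mboat1, Ptgr2, Sulf1 or Sall2, so these too had to be lower to be tested. Intervals and floors cover counting error only.

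The genes with the largest gains were read at low levels in WT. Cldn19, a tight junction claudin of kidney and retina, had 0, 1.04 and 0.903 in WT and 540.2, 452 and 447 in KO2, or 2 reads against 1559. That is a ratio of 700.5 (95% counting interval 194 to 5790). Pcnx2 had 1.18, 0 and 1.81 in WT and 369, 331 and 328 in KO2, and Thsd7a, a membrane protein with thrombospondin repeats, had 34.1, 60.1 and 35.2 in WT and 3239, 3479.5 and 3372 in KO2. Sox1ot, a noncoding RNA that overlaps Sox1, had 0, 1.04 and 0 in WT and 545, 514 and 506 in KO2, a single WT read against 1696, a ratio of 1524 with a 95% counting interval of 273 to 60240. Slc14a1, a urea carrier, rose by 6.22. Cldn19, Pcnx2, Sox1ot and Slc14a1 reached 10 in no WT library, so they had to be higher to be tested. The sources do not state strand use in the counting, so reads of overlapping and antisense genes cannot be told apart.

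To see where KO2 stood apart from the other edited clones, it was also compared with KO1 and KO3. In 1492 genes (10.5% of those tested) KO2 was higher than WT, KO1 and KO3, and in 1651 (11.6%) it was lower than all of them. At least 2-fold in every one of these, the counts were 195 (1.37%) and 124 (0.873%). Vip, a secreted neuropeptide, had 4863, 4853 and 4858 in KO2, 235, 279 and 299 in WT, 62.1, 67.5 and 76.7 in KO1 and 136, 132 and 117 in KO3. KO2 was thus above every other library, and KO1 and KO3 were below WT. Tie1, an endothelial receptor kinase, had 495, 488 and 518 in KO2, 2.35, 4.14 and 0.903 in WT, 0, 2.11 and 1.97 in KO1 and 2.07, 1.75 and 10.7 in KO3, and Retn, the adipokine resistin, had 194, 198 and 193 in KO2, 22.3, 17.6 and 20.8 in WT, 18.2, 23.2 and 23.6 in KO1 and 8.29, 8.77 and 22.4 in KO3. Mroh2b had 503, 479 and 435 in KO2, 50.6, 48.7 and 46.1 in WT, 32.1, 36.9 and 45.2 in KO1 and 5.18, 2.63 and 6.39 in KO3. Tspan15, a tetraspanin, was higher than WT by 5.64, Nrip2 by 4.80 and Mrgprd, a sensory receptor, by 5.34. Tie1 and Mrgprd reached 10 in no WT library, so the filter fixed their direction against WT.

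Among genes lower in KO2 than in WT, KO1 and KO3, Tram1 was read in the other clones at 1262, 1246 and 1138 (KO1) and 1285, 1318 and 1282 (KO3), and neither clone was called against WT (adjusted p = 0.39 and 0.63, limma). Il1rl2, the receptor for IL-36, had 1.87, 0 and 2.64 in KO2, 329, 277 and 307 in WT, 536, 484 and 523 in KO1 and 77.7, 112 and 80.97 in KO3. Acta2 had 7057, 6663 and 6629.8 in KO1 and 6723, 6322 and 6728 in KO3, and Igf2r 3182, 3156 and 3118 and 4004, 3913 and 3772, so both clones kept more of either transcript than KO2. Scarf2, a scavenger receptor, had 75.6, 94.9 and 79.1 in KO2, 918, 1149 and 1299 in WT, 1031, 1071 and 1165 in KO1 and 1209, 1158 and 1453 in KO3, and neither KO1 nor KO3 was called against WT there (adjusted p = 0.87 and 0.25, limma). Nsg1, a neuronal endosome protein, was lower than WT, at -4.87, as was Actg2, at -5.84. Zbed6 lies inside an intron of Zc3h11a, so reads of the host may count for it, and its KO2 libraries had 0, 126 and 155 (adjusted p = 0.013, but 0.054 in a fit to the 6 WT and KO2 libraries alone, both by limma).

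**Figure D4:**
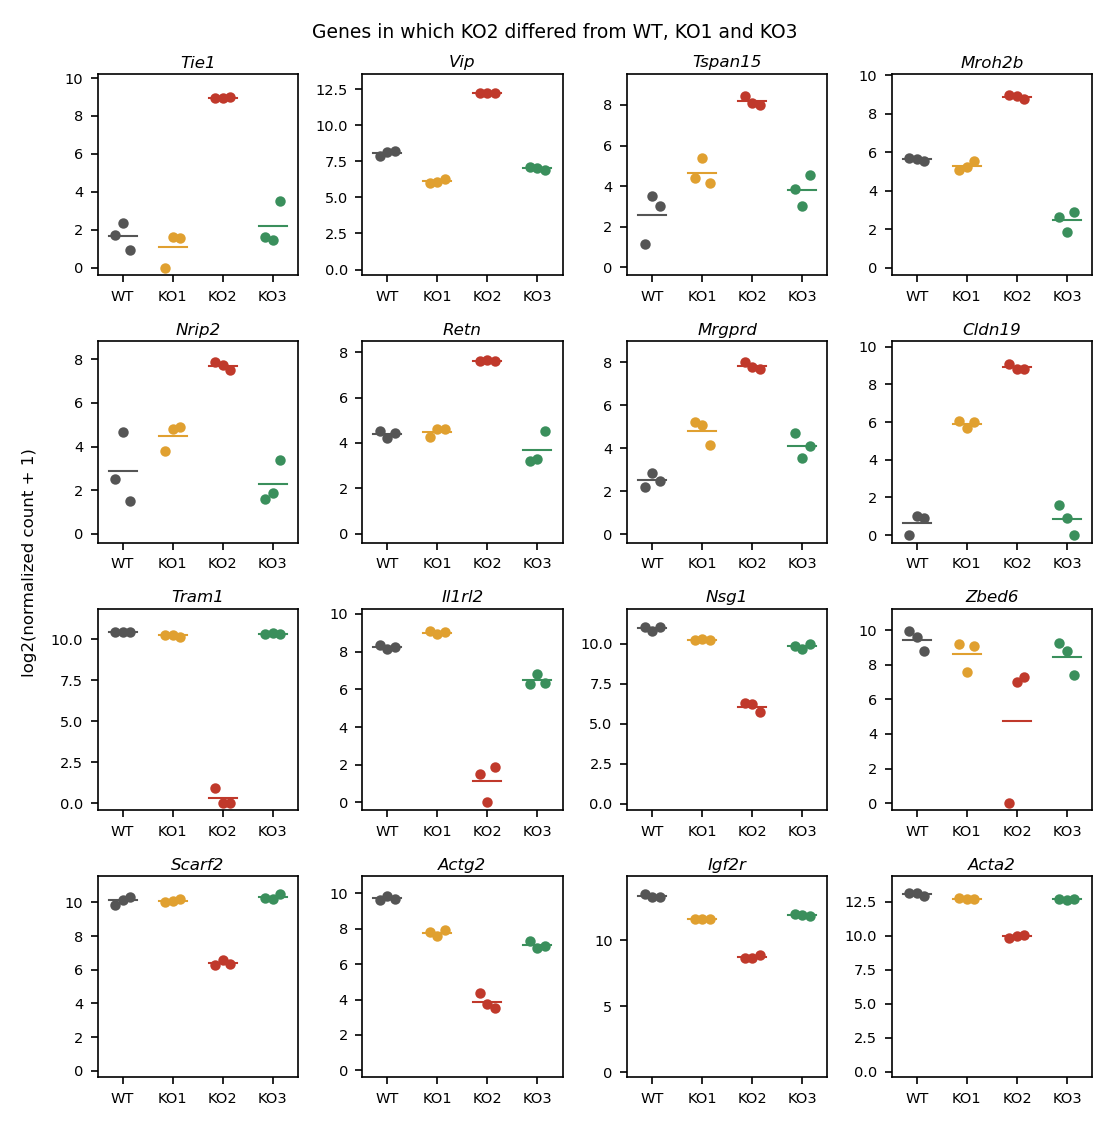
Levels of the 16 genes chosen by the smallest of the differences of KO2 from WT, KO1 and KO3, as log2(normalized count + 1) on the y axis, with the 3 libraries of each genotype as points and the mean as a line. The KO2 libraries (red) lie outside the range of the other 9 in every panel, and are widest for Zbed6, from 0 to 155.

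The lists also differed between KO2 and the other clones. The mitotic genes were lower in KO2 than in KO1 in 39 of 43 (median -0.56, against 22.4% of all genes) and lower than in KO3 in 40 (median -0.62, against 26.2%). For the tRNA synthetases the counts were 13 of 20 against KO1 and 19 against KO3, with medians of -0.41 and -1.04. Against WT, their median was -0.28 in KO1 and 0.49 in KO3, so the gap to KO3 also holds a rise in KO3. Fatty acid oxidation genes were higher in KO2 than in KO1 in 15 of 24 (against 21.6% of all genes) and than in KO3 in 11 (against 28.4%). For the GBP and IRG GTPases, KO2 was higher than KO3 in 10 of 15 and than KO1 in 2, and lower than KO1 in 5. The mevalonate genes were lower than in KO1 in 5 of 9 and than in KO3 in 1, and higher than in KO3 in 2.

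Differences were not spread evenly over the chromosomes. Medians were -0.31 on chromosome 1 (841 genes), -0.35 on 13 (542), -0.27 on 17 (706) and -0.27 on 3 (733), where between 46.7% and 51.6% of genes were lower. On the other chromosomes except 9 and Y, medians ran from 0.0006 to 0.15, the highest on 11 and 7. The shift held along chromosome 1, with medians from -0.49 to -0.19 in its windows of 20 Mb. Chromosome 9 changed along its length, from 0.06 between 20 and 40 Mb to -0.44 between 80 and 100 Mb. In KO1 the median of chromosome 1 against WT was -0.10 and in KO3 -0.17, and the median of KO2 minus KO1 there was -0.21. The other clones were also low on chromosome 13 (-0.24 and -0.30), 3 (-0.19 and -0.26) and 17 (-0.19 and -0.05). KO2 minus KO1 was -0.06, -0.06 and -0.07 on these, and KO2 minus KO3 was 0.02, 0.0007 and -0.23. DNA copy number was not measured, and its part in these values was not tested. Away from chromosomes 1, 3, 13 and 17, the main lists were still mostly lower: 32 of 33 replication genes, 32 of 35 mitotic genes, 21 of 24 genes of ribosome biogenesis and 12 of 14 tRNA synthetases were lower there, against 27.7% of all genes on those chromosomes. Lists that held more lower than higher genes but more higher than lower ones there were TGF-beta signalling, immediate early genes (12 higher, 8 lower of 25), receptor tyrosine kinases (15 and 12 of 31), mitochondrial chaperones (5 and 3 of 14) and sphingolipid genes (6 and 4 of 16). Fibroblast and progenitor markers turned the other way (2 and 3 of 8, and 2 and 3 of 6).

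**Figure D5:**
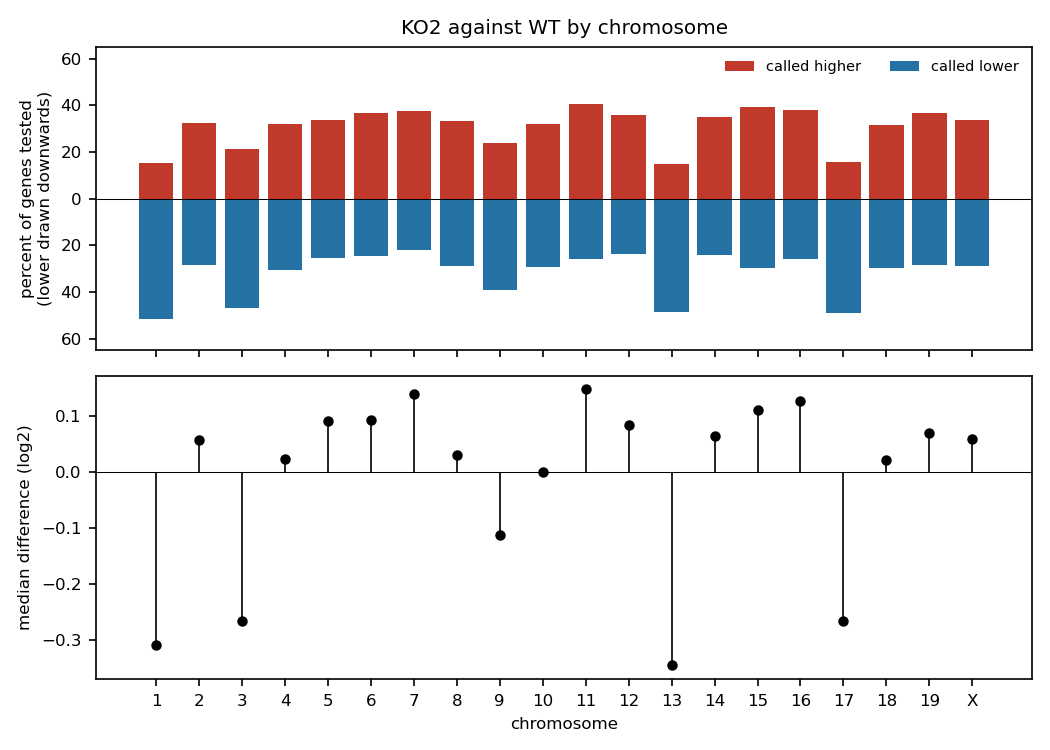
Share of tested genes on each chromosome called higher (red, upwards) or lower (blue, downwards) in KO2, in percent (top), and the median log2 difference of all tested genes on it (bottom), for chromosomes 1 to 19 and X. Chromosomes 1, 3, 13 and 17 have the lowest medians (-0.31, -0.27, -0.35 and -0.27).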

How the data were processed

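Total RNA was sequenced in 12 libraries, 3 for each of 4 genotypes, and this account rests on the WT and KO2 libraries. The authors deposited normalized counts, a signal in which each library's values are whole reads divided by 1 size factor. Cutadapt, Salmon 0.14.1, DESeq2 1.24.0 and GRCm38 (mm10) are named in the submitters' processing notes, while no source here gives settings or strand use. Their deposited table of KO2 against WT holds log2 fold changes and p-values, of which only the calls were compared.

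Whole reads were recovered from the steps between low values (at least 99.96% of each library's values whole within 0.02). Values were tested as log2(value + 1) with limma 3.58.1 in R 4.3.3, over all 4 genotypes with no covariates, and p-values were adjusted by Benjamini-Hochberg over 14200 genes. edgeR 4.0.16 and DESeq2 1.42.0 on the recovered reads, pseudocounts of 0.5 and 5, another filter or none, quantile normalization, a fit to the 6 libraries, a replicate block and each library left out in turn were the alternatives. limma was tested on simulated data. No pair of libraries agreed within counting noise, so none was treated as a duplicate.

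Genes were named by rule: Crls1, the 12 most changed in each direction with a mean of at least 100 and no overlap between groups, the 10 most abundant changed at least 2-fold, the 8 in each direction in which KO2 also differed from KO1 and KO3, 3 called members of each list in each direction, and any member of a list of at most 25. The members and lists were chosen with earlier results of these data known. Identifiers were matched to GENCODE release M21 for 54357 of 54392 genes, and promoters to the RefSeq table. Some list members are not reported here.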

Additional observations from a re-analysis of the deposited data

Results flagged for a closer look

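In 16 genes the difference of KO2 from WT was set apart from the other clones, since KO2 also differed from KO1 and from KO3 by limma's test. All clones were compared with the same WT libraries, so the values given are KO2 minus the nearer of the other clones, on the log2 scale. Against KO3, Tie1 differed by 6.76 and Vip by 5.24. Against KO1, Tspan15 differed by 3.55, Mroh2b by 3.61, Nrip2 by 3.19, Retn by 3.12, Mrgprd by 3.02 and Cldn19 by 2.9999. Among the lower genes, Tram1 differed from KO1 by -9.93, Scarf2 by -3.70 and Igf2r by -2.91. Against KO3, Il1rl2 differed by -5.37, Nsg1 by -3.76, Zbed6 by -3.72, Actg2 by -3.20 and Acta2 by -2.70. These genes were picked for the size of those differences.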

How the results depend on the processing

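Of 85 main counts of genes or list members, 76 stayed within 1.5 times of the reported count under all 15 alternatives, and 397 of 423 named genes kept their call. The 85 leave out smaller counts of some lists, several of which moved further. Without WT replicate 1, lower cardiolipin genes went from 4 to 7 and lower complex I subunits from 2 to 5. Lower large-subunit ribosomal proteins went from 2 to 9. Of the 8934 called genes, 7178 were called the same way in all 15. Among genes named in the text, the call was lost under 8 of the 15 for mt-Cytb, 7 for Rian, 6 for Airn and Lars, 5 for Prelid1 and Tfam, 3 for Wars, 2 for Itga4 and 1 for mt-Nd1, mt-Nd4l_4 and Zbed6. The replicate block gave 4280 genes higher and 4435 lower. The numbers do not pair the libraries (correlations of -0.169, 0.0524 and -0.279 between same-numbered libraries), and the block left 5 small-subunit ribosomal proteins higher. Quantile normalization gave 1 mitochondrial messenger RNA lower, 10 ATP synthase subunits higher, 14 proteasome genes lower and 23 large-subunit and 18 small-subunit ribosomal proteins higher. It reversed Rpl4 (0.11) and Col1a2 (0.0771). The fit to the 6 libraries alone gave 8 large-subunit mitoribosome genes lower, and 5 subunits of complexes II to IV, 3 of ATP synthase, 5 large-subunit and 1 small-subunit ribosomal proteins higher. edgeR and DESeq2 each called 2 histone genes higher. With 1 library left out, counts ran from 1 to 2 for mitochondrial ribosomal RNAs lower and from 10 to 24 for large-subunit mitoribosome genes lower. The counts higher ran from 5 to 13 for complexes II to IV, 3 to 9 for ATP synthase, 4 to 23 and 2 to 18 for large- and small-subunit ribosomal proteins, and 1 to 4 for histones. The cause was not tested. With 3 libraries a group, differences far under the median standard error of 0.10 could not be shown, and genes near 10 normalized counts carry the most counting error.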
